A study of Mus musculus with 18 samples.

Results

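The transcripts described here belong to 10 genes that restrain or read out FGF and ERK signalling: the Sprouty genes Spry1, Spry2 and Spry4, the Sprouty-related genes Spred1 and Spred2, the phosphatases Dusp4 and Dusp6, and the ETS factors Etv1, Etv4 and Etv5. Members were the probe sets that the array annotation pairs with exactly 1 of these symbols, which gave 27 of the 45101 probe sets and 9 of the 10 genes. Etv1 had no such probe set, since its 3 probe sets are annotated to a further symbol as well, and no value is given for it. A probe set was tested where its mean signal reached 100 in its highest group. This held for 19 of the 27 probe sets, compared with 19498 in the whole table, and all 9 genes kept at least 1. Each gene was represented by its brightest probe set, as were the 10576 genes tested in all.

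When FGF or EGF binds its receptor tyrosine kinase, the signal passes through RAS, RAF and MEK to the kinase ERK, which enters the nucleus and phosphorylates transcription factors. ERK activity raises transcripts of its own inhibitors, so that Sprouty and Spred proteins hold the pathway back at the level of RAS and RAF, DUSP6 dephosphorylates ERK in the cytoplasm and DUSP4 in the nucleus. ETV4 and ETV5 carry the signal on to target genes, and levels of Dusp6, Spry4 and Etv5 transcripts are widely used as readouts of FGF signalling in the developing forebrain.

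All cultures were neurospheres from the lateral and medial ganglionic eminences of E15.5 C57BL/6 embryos, grown for 7 days with 20 ng/ml human EGF and 10 ng/ml human bFGF, then dissociated and plated without EGF in 1% FCS. They received 10 ng/ml of the signalling protein BMP2, 50 nM trichostatin A (TSA), an inhibitor of histone deacetylases, or neither (control). At 6 h there were 2 BMP2, 2 TSA and 2 control arrays, and at 24 h 2 BMP2, 4 TSA and 6 control arrays. The sources differ on the supply of bFGF, a ligand of this pathway: the protocol in the labels adds the reagents in medium without bFGF at 2.5 days, whereas the study text starts treatment before bFGF was withdrawn. Whether bFGF was present during treatment is therefore not settled. The labels do not say whether replicates were separate cultures, so a p-value here speaks only for the spread among these arrays.

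Values are linear signals, quantile-normalized over the 18 arrays, and differences are of log2(signal + 32), which understates changes of dim genes. The words rose and fell are kept for genes with an adjusted p (Benjamini-Hochberg) under 0.05 in 1 limma fit of all 6 groups. The precision is limited by the number of arrays, which is 2 in 4 of the groups. Arrays of the same group correlated at 0.908 to 0.988. One Xist probe set separated the arrays: its signal was 703 to 2086 on both BMP2 arrays of 24 h and on control replicates 5 and 6 of 24 h, and 18.4 to 75.5 on the other 14 arrays. The labels name no batch, and the TSA arrays of 24 h all lay on the low side. Within the TSA and control groups of 24 h, arrays correlated best in pairs of replicates 1 and 2, 3 and 4, and, among controls, 5 and 6. The BMP2 arrays are set beside control replicates 5 and 6 for their shared Xist signal alone. Summed signals of 10 oligodendrocyte lineage genes were 4166 to 5052 in BMP2, 3495 to 13545 in TSA and 22002 to 33604 in control cultures at 24 h. In bulk RNA, fewer cells of a type and less RNA per cell cannot be told apart. Progenitor marker sums at 24 h were 27286 to 27401 in BMP2, 27828 to 30663 in TSA and 26148 to 30031 in control cultures, so that both treatments overlapped the controls. Of the 9 progenitor markers tested, 1 fell after BMP2, and 2 rose and 1 fell after TSA at 24 h. All 6 microglial and 3 erythroid markers stayed below 100 in every group.

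**Figure D1:**
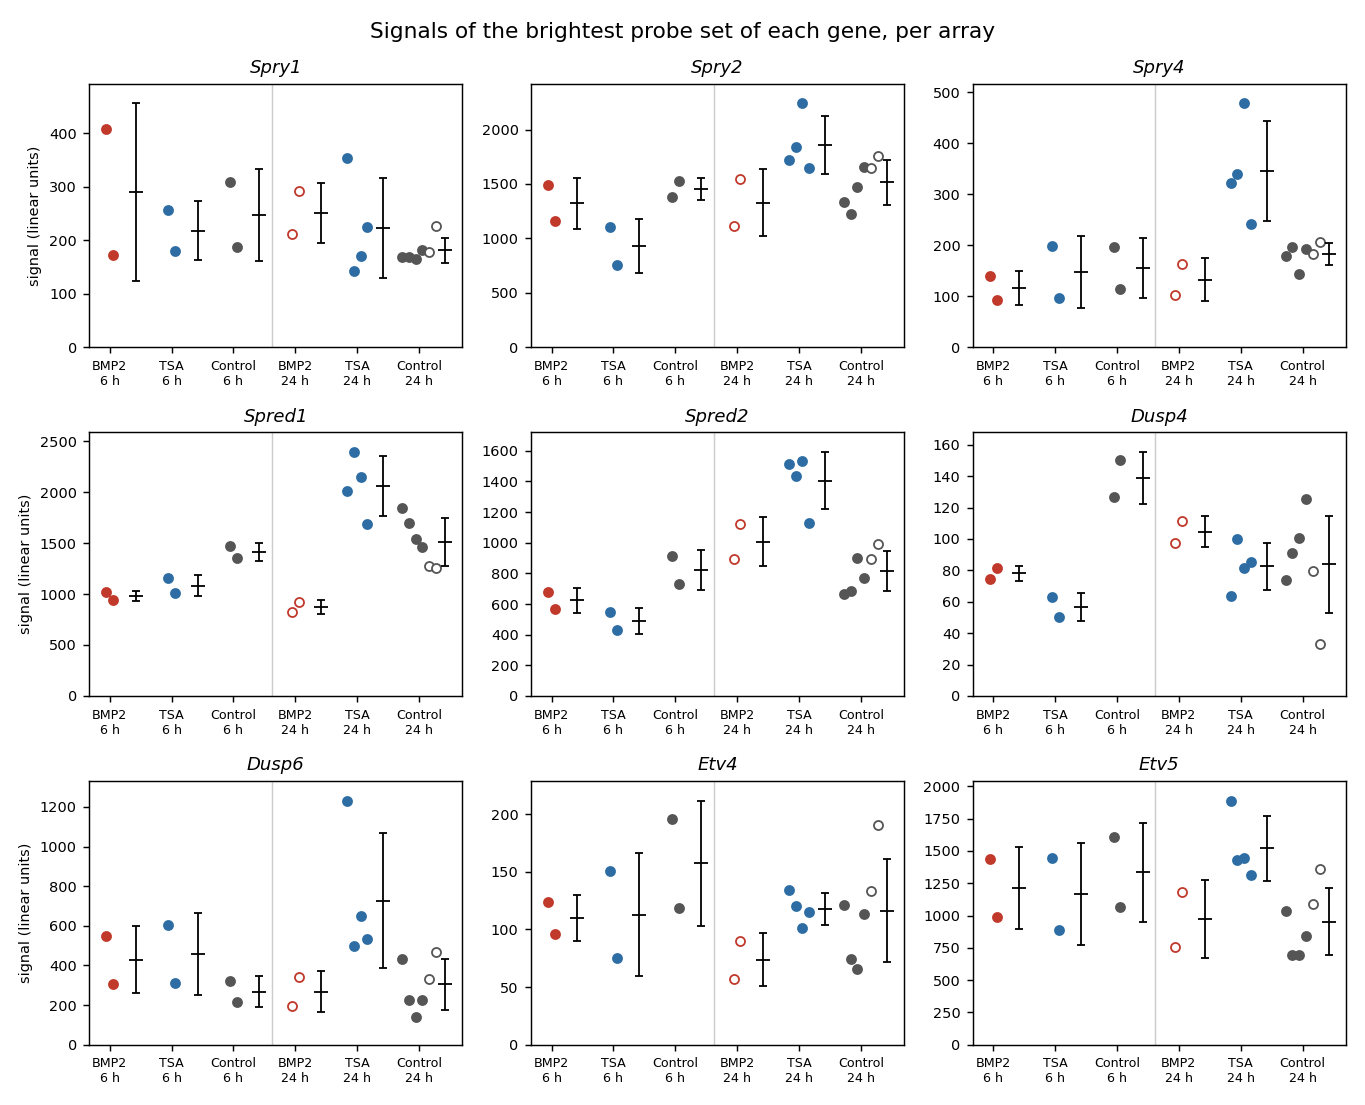
Signal of the brightest probe set of each gene on every array (linear axes from 0, 1 point per array), with the mean and SD of each group as a bar beside the points. Open circles are arrays of high Xist signal. Spry4, Spred2 and Dusp6 have all 4 TSA arrays of 24 h above all 6 controls of 24 h. The share of all tested probe sets separated in this way was not counted. Spred1 has both BMP2 arrays of 24 h below these controls, beside 14.7% of all tested probe sets.

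For 6 of the 9 genes, the highest group mean was that of TSA at 24 h. Of the 9 genes, 5 rose and none fell after 24 h of TSA, beside 18.6% of all tested genes that rose and 38.7% that moved in either direction. The risers were Dusp6, Spry4, Spred2, Etv5 and Spred1, so that a phosphatase, a Sprouty, both Spred genes and an ETS factor were among them. All 9 differences were above 0, with a median of 0.44 compared with -0.02 over all genes tested, although those of Spry1, Dusp4 and Etv4, which did not pass, fell below 0 under some alternative settings.

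Dusp6, the cytoplasmic ERK phosphatase, had the largest difference of the 9. Its signals were 1230, 496, 651 and 533 on the TSA arrays, against a lowest of 143, a median of 278 and a highest of 469 on the control arrays of 24 h. Every TSA array thus lay above every control, although replicate 1 stood far above the other 3 TSA arrays. The share of all tested probe sets separated in this way was not counted, so the lack of overlap here and in the genes below is description only. The log2 difference was 1.18 ± 0.32 (SE; limma, adjusted p = 0.010), a 2.26-fold higher level. Control replicate 1, the partner of the brightest TSA array by number, was also among the higher controls at 433.

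Spry4, a Sprouty inhibitor of signalling between receptor and ERK, had 322, 339, 478 and 242 in TSA cultures, against a lowest of 144, a median of 188 and a highest of 206 in control cultures. The groups did not overlap. Spry4 rose 1.72-fold (log2 difference 0.78 ± 0.20, adjusted p = 0.0068). Its second tested probe set gave 0.33 with an adjusted p of 0.057, correlated at only 0.31 with the first over the 18 arrays and reached no group mean above 138, so the rise rests on 1 probe set.

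Spred2, an inhibitor of RAF activation by RAS, gave the smallest adjusted p of the 9 genes. TSA cultures had 1517, 1439, 1533 and 1131, against a lowest of 668, a median of 830 and a highest of 991 in control cultures. There was again no overlap. The level was 1.70-fold higher (log2 difference 0.76 ± 0.14, adjusted p = 0.00046). The dim second probe set gave 0.95 with an adjusted p of 0.065. It was tested only because its mean reached the limit in TSA cultures of 24 h (179), so it adds no support to the rise. Its TSA signals were 355 and 232 on replicates 1 and 2, but 74.6 and 55.5 on replicates 3 and 4. Against the controls of the same numbers, the log2 differences were 1.04 and 0.24.

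Spred1, the other Spred gene and the one mutated in Legius syndrome in humans, had 2011, 2394, 2151 and 1690 in TSA cultures, against a lowest of 1256, a median of 1501 and a highest of 1845 in control cultures. TSA replicate 4 fell within the range of the controls, and the other 3 lay above it. The rise was 1.36-fold (log2 difference 0.44 ± 0.12, adjusted p = 0.0082). Spred1 has 7 tested probe sets, of which 6 rose, beside 16.6% of all tested probe sets, with log2 differences of 0.36 to 0.96 over all 7. These 7 read 1 gene on the same arrays (pairwise Pearson r of 0.60 to 0.98), so they are not independent of each other, here and in the other comparisons.

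Etv5, an ETS factor induced by FGF, had 1888, 1434, 1446 and 1315 in TSA cultures, against a lowest of 697, a median of 939 and a highest of 1359 in control cultures. The lowest TSA array was just below the highest control, which was replicate 6. The rise was 1.61-fold (log2 difference 0.68 ± 0.21, adjusted p = 0.020). Both dimmer Etv5 probe sets rose further, by 0.87 and 1.11 (adjusted p = 0.0024 and 0.0035), and had all TSA arrays above all controls. Mean signals, from the brightest to the dimmest probe set, were 1521, 620 and 303 in these TSA cultures, beside 1334, 617 and 342 in controls of 6 h.

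Of the 4 genes that did not pass, Spry2, a further Sprouty inhibitor, had 1717, 1842, 2243 and 1644 in TSA cultures, against a lowest of 1226, a median of 1560 and a highest of 1757 in control cultures. The groups overlapped, and the log2 difference was 0.29 with an adjusted p of 0.12. With the replicate number as a block it was 0.38, with an adjusted p of 0.059 over all arrays and of 0.027 over TSA and control replicates 1 to 4 alone, a fit added after seeing the data. Spry1, Dusp4 and Etv4 gave 0.20, 0.02 and 0.06, each with an adjusted p of at least 0.54.

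**Figure D2:**
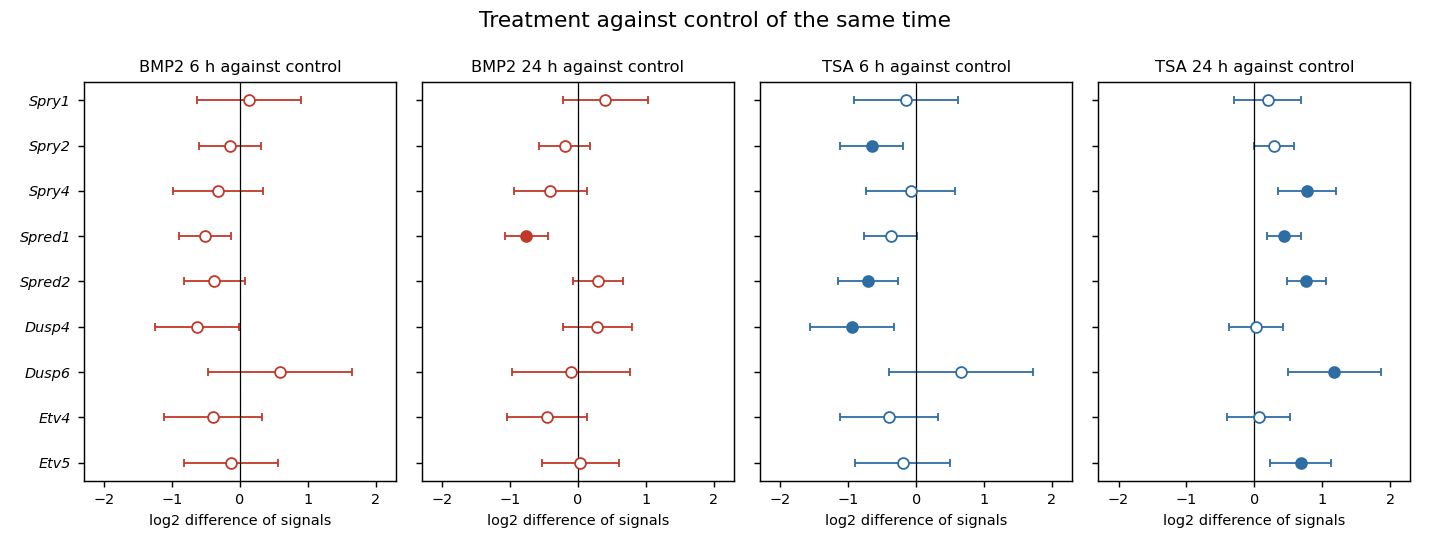
Log2 difference of signals between treatment and control of the same time for the 9 genes, with 95% confidence intervals. Filled points passed the adjusted p of 0.05: 5 at TSA 24 h, 3 at TSA 6 h, 1 at BMP2 24 h and none at BMP2 6 h. In the same order, 38.7%, 26.3%, 17.6% and 1.79% of all tested genes passed in either direction.

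The rises were also looked at within these sets of arrays. These are the arrays that gave the calls, so the values describe the rises and add no support. For TSA replicates 1 and 2 against control replicates 1 and 2, and then for replicates 3 and 4 against controls 3 and 4, the log2 differences were 1.24 and 1.55 for Dusp6, 0.73 and 0.91 for Spry4, 1.09 and 0.64 for Spred2, 0.93 and 0.82 for Etv5, and 0.30 and 0.34 for Spred1. Each of these 5 genes was higher in TSA than in the control of the same number in 4 of 4 pairs. Etv4, which did not pass, was so as well, whereas Dusp4 was higher in 1 of 4. The share of all tested probe sets higher in 4 of 4 pairs was not counted. With a term for high Xist signal the 5 genes had adjusted p of 0.00019 to 0.027. Scaling to equal medians, which put the median of all genes at -0.12, left 3 of the 5, with Spred1 at an adjusted p of 0.072 and Etv5 at 0.055. Etv5 was also lost without TSA replicate 1 (adjusted p = 0.072). Oligodendrocyte lineage genes moved with this comparison, 9 of 10 falling, with sums of 3495 to 13545 in TSA and 22002 to 33604 in control cultures, and their part in the feedback genes was not tested. Neuronal sums were 3492 to 4121 in TSA and 4743 to 6982 in control cultures, while of the 8 neuronal markers 2 rose and 3 fell. Astrocyte sums were 22500 to 31117 and 21829 to 31655, with 3 of 8 markers falling and 0 rising. The part of both was likewise not tested.

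**Figure D3:**
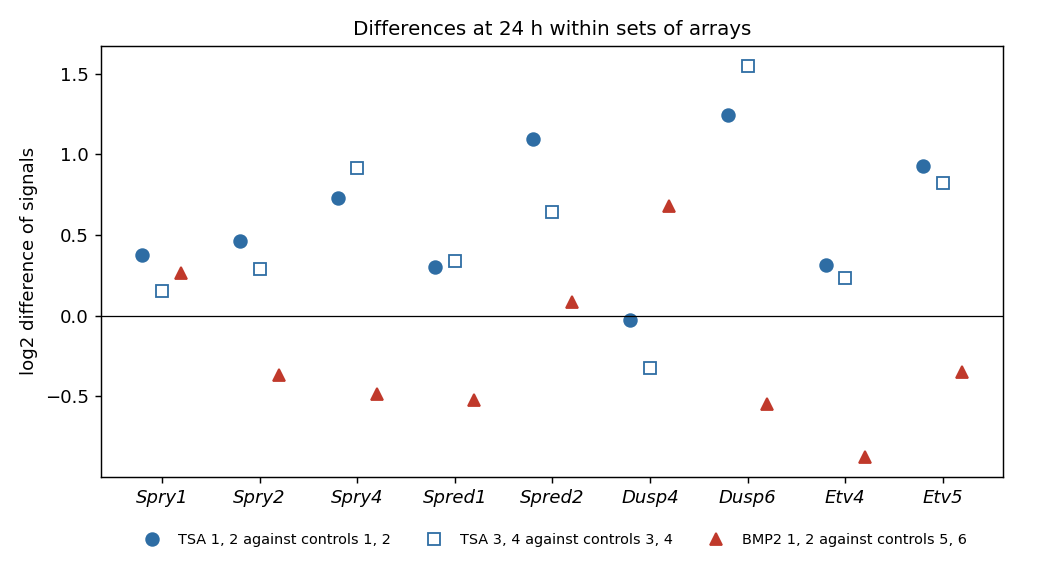
Log2 differences at 24 h within sets of arrays, for TSA against control replicates 1 and 2 (filled circles), TSA against control replicates 3 and 4 (open squares), and BMP2 against control replicates 5 and 6, which share its Xist signal (triangles), 1 point per gene and set. Both TSA points of Spry4, Spred1, Spred2, Dusp6 and Etv5 lie above 0, and Spred1 after BMP2 lies at -0.52.

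Since ETS factors are direct targets of ERK, the promoters of the members were searched for the ETS core. RefSeq (GRCm38.p6) gave promoter sequence for 7 of the 10 genes, with none for Spry4, Dusp4 and Etv4. The 250 bases before the start held CGGAAG, on either strand, in Spred1, Spred2 and Dusp6, and not in Spry1, Spry2, Etv1 or Etv5. A link between this match and the changes after TSA or BMP2 was not tested. The same letters occur in 13.6% of 32851 promoters of this length. The core lay 11 bases before the start in Spred1 (chr2:117120821-117121070, plus strand), 37 bases in Spred2 (chr11:19924192-19924441, plus strand) and 56 bases in Dusp6 (chr10:99262981-99263230, plus strand). These 3 are shown 5′ to 3′ with the core in capitals, read on the plus strand in Spred1 and on the minus strand, as CTTCCG, in the other two.
Spred1: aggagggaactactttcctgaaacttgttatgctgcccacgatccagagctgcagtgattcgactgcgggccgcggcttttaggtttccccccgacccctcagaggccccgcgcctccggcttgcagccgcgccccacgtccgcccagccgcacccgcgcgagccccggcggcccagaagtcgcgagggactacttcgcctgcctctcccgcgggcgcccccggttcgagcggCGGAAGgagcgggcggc
Spred2: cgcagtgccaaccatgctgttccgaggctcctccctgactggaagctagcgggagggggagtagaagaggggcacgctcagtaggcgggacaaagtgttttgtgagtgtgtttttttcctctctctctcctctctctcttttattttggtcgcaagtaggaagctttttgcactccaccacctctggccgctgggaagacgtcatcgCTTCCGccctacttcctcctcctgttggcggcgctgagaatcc
Dusp6: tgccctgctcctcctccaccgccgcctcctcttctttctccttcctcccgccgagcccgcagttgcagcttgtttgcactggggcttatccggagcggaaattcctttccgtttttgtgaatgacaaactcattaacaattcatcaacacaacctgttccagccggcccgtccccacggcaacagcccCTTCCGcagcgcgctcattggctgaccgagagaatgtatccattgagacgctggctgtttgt
In Spred2 the core shares 3 bases with a GC box (GGGCGG), which is found in 32.7% of promoters and also in Spry1, Spred1 and Etv5. Of the other letters searched on both strands, TGACG was found only in Spred2 (17.8% of promoters), GGCGCC in Spred1 and Etv5 (9.59%) and the AP-1 site TGAGTCA in none (4.46%). A match describes these letters and not a bound site.

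At 6 h the TSA picture was a different one. Of the 9 genes, 3 fell and none rose, beside 11.8% of all tested genes that fell and 26.3% that moved in either direction. The 3 were Dusp4, Spred2 and Spry2, and 8 of 9 differences were below 0, with a median of -0.38 compared with 0.02 over all genes. Those of Spry1, Spry4 and Etv5 turned positive when some arrays were left out.

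Dusp4, the nuclear ERK phosphatase, had 62.8 and 50.5 in TSA cultures, against 127 and 151 in control cultures of 6 h. The log2 difference was -0.95 ± 0.29 (adjusted p = 0.029), at signals that are near or below the limit of 100. Spred2 had 548 and 431 in TSA cultures, against 912 and 728 in control cultures, a log2 difference of -0.71 ± 0.21 (adjusted p = 0.024). All TSA arrays were below all controls for both genes, beside 36.5% of all tested probe sets.

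Spry2 had 1105 and 751 in TSA cultures, against 1383 and 1529 in control cultures, again without overlap. It fell by 0.66 on the log2 scale (SE 0.22, adjusted p = 0.040). Spred1, at 1153 and 1009 in TSA cultures against 1475 and 1349 in control cultures, also lay below on both arrays, as did all 7 of its probe sets, beside 36.5% of all tested probe sets, with an adjusted p of 0.15. Dusp6 was the 1 gene with a positive difference, 0.66 (95% CI -0.40 to 1.73, adjusted p = 0.38), from 604 and 311 in TSA cultures and 323 and 213 in control cultures, which overlapped.

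These 3 calls were weak. None of the 4 TSA and control arrays of 6 h could be left out without loss: the number of genes that fell was 0 without control replicate 1, 0 without TSA replicate 2, 1 without control replicate 2 and 2 without TSA replicate 1, and Dusp4 was lost each time (adjusted p of 0.078 to 0.17). Spred2 was also lost with its probe sets averaged (-0.34, adjusted p = 0.44), Dusp4 without the filter on low signals (0.056), and Spry2 without that filter, on the deposited signals and under equal medians (0.051 to 0.073). Of the oligodendrocyte lineage genes 4 of 10 fell, with sums of 13348 to 15949 in TSA and 27873 to 31118 in control cultures. Of the neuronal markers 3 of 8 fell and 0 rose, with sums of 3751 to 4751 and 6518 to 7966. Of the progenitor markers 4 of 9 fell, with sums of 23459 to 25742 in TSA and 28293 to 29477 in control cultures, and of the astrocyte markers 3 of 8, with sums of 15915 to 18627 and 22437 to 25293. The part of these marker changes in the 3 genes was not tested.

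The TSA effect at 24 h minus that at 6 h was tested directly. Of the 9 genes, 3 had a higher difference at 24 h and none a lower one, beside 5.08% of all tested genes with a higher difference and 11.6% in either direction. Of the 7 Spred1 probe sets, which are not independent of each other, 5 passed, beside 4.29% of all tested probe sets. The change was 1.47 ± 0.25 for Spred2 (adjusted p = 0.0031), 0.95 ± 0.26 for Spry2 (adjusted p = 0.030) and 0.82 ± 0.22 for Spred1 (adjusted p = 0.026). Thus Spred2 was at 0.612-fold of its controls at 6 h and 1.70-fold at 24 h. For Dusp6, whose difference was positive at both times, the change was 0.51 (95% CI -0.75 to 1.78, adjusted p = 0.64). The call of Spred2 stood without any 1 of the 14 arrays, whereas those of Spry2 and Spred1 were both lost without control replicate 1, control replicate 2 or TSA replicate 2 of 6 h, and under equal medians. Spry2 was lost without the filter on low signals too (adjusted p = 0.056). Spred1 was lost without TSA replicate 1 of 6 h as well (adjusted p = 0.065).

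After BMP2, Spred1 was the only one of the 9 genes that passed the test at either time. At 24 h it fell, beside 7.72% of all tested genes that fell and 17.6% that moved in either direction, and the median of the 9 genes was -0.11 compared with 0.03 over all genes. This median had no stable sign: it was 0.24 without BMP2 replicate 1 and -0.43 without BMP2 replicate 2, 0.0039 and 0.025 without control replicates 1 and 6, and -0.37 against control replicates 5 and 6 alone. BMP2 cultures had 826 and 919, against a lowest of 1256, a median of 1501 and a highest of 1845 in control cultures. Both BMP2 arrays lay below all 6 controls. The level was 0.591-fold (log2 difference -0.76 ± 0.15, adjusted p = 0.0021).

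All 7 Spred1 probe sets had both BMP2 arrays of 24 h below all controls, beside 14.7% of all tested probe sets. Of the 7, 6 fell, beside 8.04% of all, with log2 differences of -1.02 to -0.72. The exception, at -0.43 with an adjusted p of 0.19, is a probe set whose suffix (_x_at) marks that it may hybridise with other transcripts. Control replicates 5 and 6, which share the high Xist signal of the BMP2 arrays, had the lowest Spred1 signals of the controls, 1271 and 1256. Against these 2 alone the difference was -0.52 (adjusted p = 0.048) and the 7 probe sets gave -0.72 to -0.28, and with a term for high Xist signal over all arrays the adjusted p was 0.036. Without BMP2 replicate 1 the adjusted p was 0.059. Sums of oligodendrocyte lineage genes were 4166 to 5052 in BMP2 and 22002 to 33604 in control cultures, with 8 of 10 falling, and astrocyte sums were 16339 to 19203 and 21829 to 31655, with 5 of 8 falling. Their part in the Spred1 difference was not tested.

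**Figure D4:**
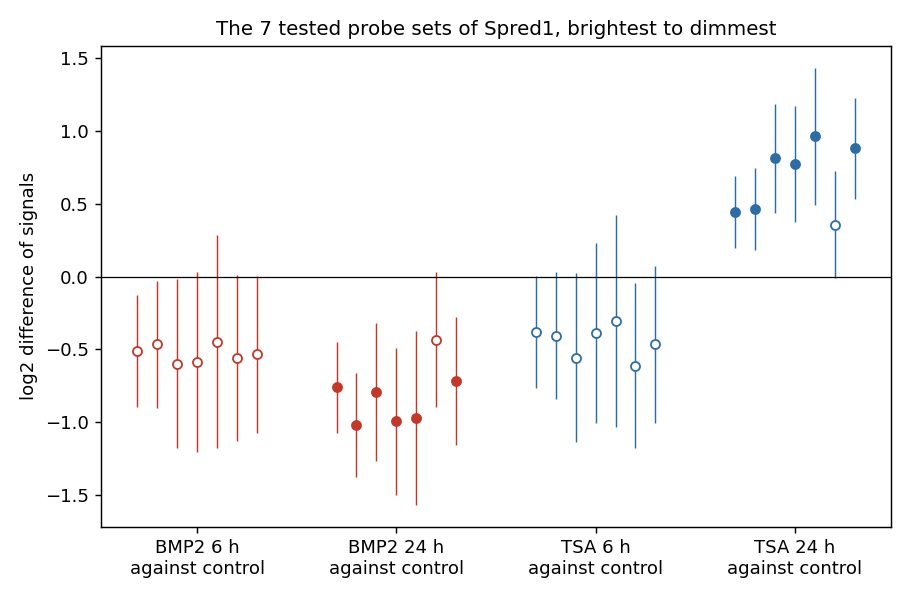
Log2 difference between treatment and control for each of the 7 tested Spred1 probe sets, from the brightest to the dimmest within each comparison, with 95% confidence intervals and filled points where the adjusted p was under 0.05. All 7 lie below 0 after BMP2 at both times and after TSA at 6 h, and all 7 lie above 0 after TSA at 24 h.

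None of the other 8 genes passed at 24 h of BMP2, and for several the difference depended on which controls were used. Dusp6 had 197 and 341 in BMP2 cultures, within the control range of 143 to 469, with a log2 difference of -0.11 (95% CI -0.98 to 0.76). It was -0.54 against control replicates 5 and 6 and 0.11 against control replicates 1 to 4. Etv5, at 757 and 1184 in BMP2 cultures, lay within the control range of 697 to 1359 (difference 0.03, 95% CI -0.54 to 0.60), with -0.35 against control replicates 5 and 6 and 0.22 against the other 4. For both genes the value near 0 thus averages opposite signs, and the intervals leave room for changes in either direction. Etv4 had the lowest mean of its 6 groups in BMP2 cultures of 24 h, 57.3 and 90.1 against a lowest of 65.7, a median of 117 and a highest of 190 in control cultures, with a difference of -0.45 and an adjusted p of 0.28. Against control replicates 5 and 6, at 133 and 190, it was -0.88 (adjusted p = 0.075). Spry4 (102 and 162 in BMP2, 183 and 206 in these controls) and Spry2 (1111 and 1547 in BMP2, 1646 and 1757 in these controls) also lay wholly below them, at -0.49 and -0.37 with adjusted p of 0.49 and 0.37. The share of all tested probe sets separated from these controls was not counted, so this is description only. Against all controls of 24 h, Etv4, Spry4 and Spry2 overlapped. There Spry4 and Spry2 gave -0.41 and -0.19 (adjusted p = 0.29 and 0.48).

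At 6 h of BMP2 none of the 9 genes passed, beside 1.79% of all tested genes that moved in either direction. Spred1 had 1018 and 943 in BMP2 cultures, against 1475 and 1349 in control cultures, and was lower on all 7 probe sets without overlap, beside 21.0% of all tested probe sets. Its log2 difference was -0.51 with an unadjusted p of 0.012 and an adjusted p of 0.35. Dusp4, at 74.8 and 81.4 in BMP2 against 127 and 151 in control cultures, and Spred2, at 681 and 567 against 912 and 728, also lay below on both arrays (adjusted p = 0.76 and 1.00). The BMP2 effect at 24 h minus that at 6 h passed for none of the 9 genes, beside 0.766% of all tested genes.

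Set against each other at 24 h, TSA and BMP2 cultures differed in 3 of the 9 genes, all higher in TSA, beside 17.2% of all tested genes that were higher in TSA and 38.3% in either direction. Spred1 had 2011, 2394, 2151 and 1690 in TSA cultures, against 826 and 919 in BMP2 cultures, a log2 difference of 1.20 ± 0.16 (adjusted p = 4.4e-05) that passed on all 7 probe sets, beside 18.5% of all tested probe sets that were higher. Spry4 had 322, 339, 478 and 242 in TSA cultures, against 102 and 162 in BMP2 cultures (1.19 ± 0.27, adjusted p = 0.0032). Dusp6 differed by 1.29 ± 0.43 (adjusted p = 0.029).

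For Etv5 the brightest probe set missed the threshold at 0.65 (adjusted p = 0.082), while its dimmer probe sets passed at 1.04 and 1.93 (adjusted p = 0.0055 and 0.00062). The dimmest Etv5 probe set had 212 to 389 in TSA cultures and 27.2 and 92.8 in BMP2 cultures. Spry4 and Dusp6 were lost without BMP2 replicate 1, leaving Spred1 alone, and Dusp6 also without BMP2 replicate 2 (adjusted p = 0.052) or TSA replicate 1 (0.070). Without TSA replicate 4, 5 genes passed, and how many of all tested genes did so was not counted. The TSA arrays all have low and the BMP2 arrays all high Xist signal, so treatment and this grouping cannot be told apart between them without the controls. With a term for it 6 genes passed, again with no count over all tested genes. Astrocyte sums were 22500 to 31117 in TSA and 16339 to 19203 in BMP2 cultures, with 5 of 8 markers higher and 1 lower in TSA. Oligodendrocyte lineage sums were 3495 to 13545 and 4166 to 5052, with 1 of 10 higher and 1 lower. The part of both was not tested. At 6 h none of the 9 genes differed between TSA and BMP2, beside 28.0% of all tested genes, and the largest difference by size was Spry2 at -0.51 (adjusted p = 0.10).

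Between the controls of 24 h and 6 h none of the 9 brightest probe sets passed, beside 4.36% of all tested genes. Dusp4 lay below its 6 h level on all 6 controls of 24 h, at a lowest of 32.8, a median of 85.4 and a highest of 125 at 24 h, against 127 and 151 at 6 h (difference -0.61, adjusted p = 0.15). The same separation held for 1 dimmer probe set of Spry4, 1 of Spred1 and 2 of Etv5. Its share over all tested probe sets was not counted. Of the dimmer probe sets, the dimmest of Etv5 fell, beside 2.88% of all tested probe sets, at 69.6 to 183 at 24 h against 288 and 395 at 6 h (log2 difference -1.29, adjusted p = 0.038). Its brightest probe set, at -0.48, had an adjusted p of 0.30.

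Over all 18 arrays, and as a description only, since arrays of a group share treatment and culture, Dusp6 and Etv5 tracked each other most closely of the 36 pairs of members (Pearson r = 0.86). Spry2 and Spred2 followed at 0.83 and Spry4 and Spred1 at 0.81. Dusp4 stood apart, with its lowest coefficient against Dusp6 at -0.50. Among all other tested genes, the closest to Spred1 were Eif4b (0.96), F3 (0.94) and Ak3 (0.94), the closest to Dusp6 Rbm46 (0.86), to Etv5 Txn1 (0.88), to Spry4 Camk2b (0.90), to Spred2 Qpct (0.89) and to Spry2 Zeb1 (0.88), each over 18 arrays.

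**Figure D5:**
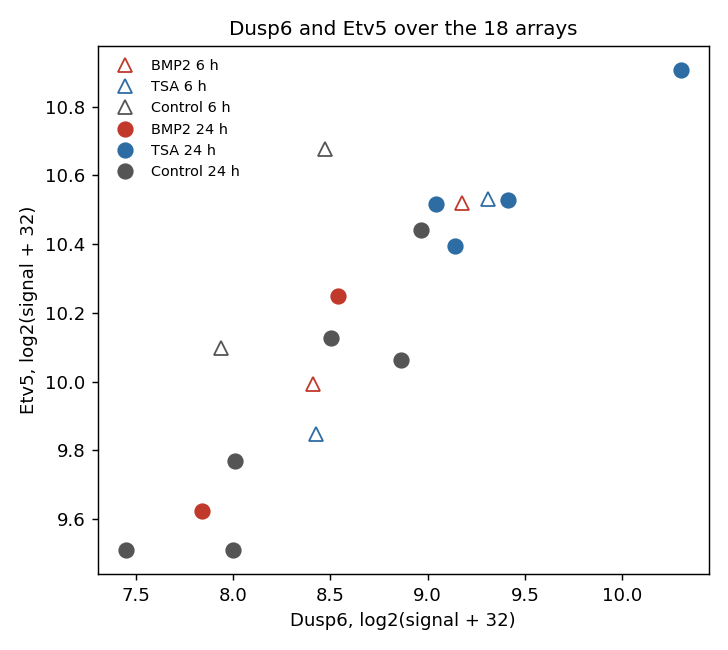
Log2(signal + 32) of Etv5 (vertical) against Dusp6 (horizontal), 1 point per array, open triangles for 6 h and filled circles for 24 h, coloured by treatment. The TSA arrays of 24 h lie at the upper right, with TSA replicate 1 farthest out. Next to them lie 1 BMP2 and 1 TSA array of 6 h and control replicate 6 of 24 h. The Pearson r over the 18 arrays is 0.86.

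The counts that follow for other genes of the pathway stand beside 1.79% of all tested genes called in either direction at BMP2 6 h, 17.6% at BMP2 24 h, 26.3% at TSA 6 h and 38.7% at TSA 24 h. Upstream of the feedback genes, the receptors moved in different directions. Egfr, the EGF receptor, fell by 1.99 and 1.91 on the log2 scale after 6 and 24 h of BMP2 (adjusted p = 0.0043 and 0.00017). After 24 h of TSA it rose by 0.79 (adjusted p = 0.010), with signals of 1833 to 2647 in TSA and 799 to 2071 in control cultures. Pdgfra, the PDGF receptor of oligodendrocyte precursors, fell in all 4 comparisons, with log2 differences of -0.98 and -2.92 after BMP2 and -1.99 and -0.99 after TSA at 6 and 24 h (adjusted p of 4.3e-08 to 0.046).

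Fgfr1, a main FGF receptor of the forebrain, rose by 0.60 after 24 h of TSA (adjusted p = 0.018) and passed in none of the other 3 comparisons with controls. Fgfr2 and Fgfr3 passed in none of the 4. Ntrk2, the BDNF receptor, fell by 1.12 after 24 h of BMP2 (adjusted p = 0.0016). Over the 9 tested receptors of 12 listed, 2 fell after 6 h and 4 after 24 h of BMP2, 2 fell after 6 h of TSA, and 2 rose and 1 fell after 24 h of TSA, the last being no larger a share than over all genes. Their median log2 differences were -0.14, -1.12, -0.66 and 0.15 in these comparisons.

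Of 20 FGF ligands only 5 were tested, and Fgf2 itself, the ligand supplied as bFGF, stayed at or below 22.9 on every array. In the same order of comparisons, the numbers that rose and fell were 0 and 0, 0 and 1, 1 and 1, and 1 and 0. Fgf12 fell after 24 h of BMP2 (-0.997, adjusted p = 0.0018), while after 6 h of TSA Fgf11 rose (1.28, adjusted p = 0.0022) and Fgf13 fell (-1.04, adjusted p = 0.0030). Fgf11, Fgf12 and Fgf13 encode intracellular proteins that do not act as secreted ligands.

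In the RAS, RAF, MEK and ERK core and its adaptors, 15 of 21 genes were tested. None moved at BMP2 6 h, 2 rose and 1 fell at BMP2 24 h, 3 rose and 2 fell at TSA 6 h, and 1 rose and 4 fell at TSA 24 h, with median log2 differences of -0.03, 0.03, -0.28 and -0.16. At TSA 24 h the share called was below that over all genes. The adaptor Shc1 rose after TSA by 0.81 at 6 h and 0.55 at 24 h (adjusted p = 0.0045 and 0.0017), and the kinase Araf fell by 0.79 and 0.43 (adjusted p = 0.0021 and 0.0034). Nras, a RAS gene, fell by 0.36 at 24 h (adjusted p = 0.0019).

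Among 14 other feedback inhibitors tested, 1 rose at BMP2 6 h, 2 rose and 1 fell at BMP2 24 h, 2 rose and 1 fell at TSA 6 h, and 1 rose and 3 fell at TSA 24 h, the last beside 18.6% of all tested genes that rose. The median log2 differences were 0.0029, 0.15, -0.07 and -0.11. Dusp1, a phosphatase that acts on p38 and JNK as well as ERK, rose by 1.76 after 24 h of BMP2 (adjusted p = 5.5e-05) and fell by 0.89 after 6 h of TSA (adjusted p = 0.030). Dusp14 rose after TSA at both times (1.12 and 0.84, adjusted p = 0.0049 and 0.00093). Errfi1, a feedback inhibitor of the EGF receptor, rose by 0.71 after 6 h of TSA and fell by 0.62 after 24 h (adjusted p = 0.0066 and 0.00041).

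Of 14 other tested genes listed for a link to ERK activity, none passed at BMP2 6 h. At BMP2 24 h 4 rose and 2 fell, and at TSA 6 h 3 rose and 4 fell. At TSA 24 h 3 rose and 2 fell, which is near the share over all genes. The median log2 differences were 0.12, -0.06, 0.12 and 0.22. Ier3, an immediate early gene, rose by 2.35 and 2.10 after 6 and 24 h of TSA (adjusted p = 0.00030 and 5.2e-06). Elk3, an ETS factor that is not taken here as a readout of ERK activity, rose by 0.99 at 24 h of TSA (adjusted p = 5.7e-05). Myc, a transcription factor of proliferation, fell after TSA by 1.81 and 1.06 at 6 and 24 h (adjusted p = 0.0013 each). These 4 comparisons share controls within each time, so that the values of BMP2 and TSA of 1 time are not independent of each other.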

How the data were processed

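The deposited intensity values are linear signals per probe set of Mouse Genome 430 2.0 arrays. The submitters' notes name MAS5 (version not given), whereas the methods of the study name dChip and a quantile step. Medians per array were 35.43 to 41.59 as deposited.

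Signals were quantile-normalized, 32 was added and the log2 taken (R 4.3.3). A probe set was tested where its highest group mean reached 100, with limma 3.58.1 (1 coefficient per group, eBayes with trend). The Benjamini-Hochberg adjustment ran over all 19498 probe sets, separately for each comparison. Named genes were the members and, from each pathway list, up to 3 genes of smallest adjusted p over the treatments against controls, with the receptors Fgfr1, Fgfr2, Fgfr3 and Egfr always named. Other genes of this rule are not reported here. The members and lists were chosen with earlier results of these data known. The annotation names 1 gene for 34958 probe sets, several for 932 and none for 9211.

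Equal replicate numbers of TSA and control arrays of 24 h deviated together (residual r of 0.318 to 0.584, in 4 of 4 highest at the own number). They were taken as pairs in the counts of pairs and in the alternatives with a block. The main fit, which gave the standard errors and adjusted p above unless a setting is named, held no block. BMP2 arrays of 24 h did not deviate with the controls of their number (-0.129 and 0.0035), and 6 h holds only 2 numbers. The alternatives were other scalings, pseudocounts, filters, variance models and sets of arrays, 1 mean per gene, the block, terms for Xist or array sets, and each array left out. The steps were tested on simulated data with independent noise on each array. Deviations shared between arrays, as seen here at equal replicate numbers, were not simulated.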

Additional observations from a re-analysis of the deposited data

Results flagged for a closer look

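Among the 38 combinations of a tested probe set with a group of at least 4 arrays, 1 held an outlying array, where 1.9 would be so by chance at 1 in 20. Spry1 was 227.1 on control replicate 6 of 24 h, with the nearest other control at 182.5, a gap of 0.709 of the range of the group. That array is one of the 2 controls of high Xist signal.

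The TSA effect differed between 24 h and 6 h in the limma test of the difference itself for 3 genes. The log2 values of the effect at 24 h minus that at 6 h were 0.9474 for Spry2 and 1.472 for Spred2. For Spred1 they were 0.8189, 0.8705, 1.368, 1.161 and 1.344 on the 5 probe sets that passed.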

How the results depend on the processing

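No member that passed a test changed sign under any alternative, while differences that did not pass did so under some. Numbers of the 9 genes that passed were as follows where they moved. How many of all tested genes passed under each alternative was not counted, so these numbers are not a result about the 9 genes in particular. With the replicate block over all arrays, 1 passed at BMP2 6 h (Spred1), 6 for TSA against BMP2 at 24 h, 2 for BMP2 24 h minus 6 h, 5 for TSA 24 h minus 6 h and 1 for control 24 h against 6 h (Dusp4). With the replicate block in the 6 h arrays alone, chosen after seeing the data, 4 passed at BMP2 6 h, 7 at TSA 6 h, Dusp6 rising and 6 falling, and 2 for TSA against BMP2 at 6 h, where 2 shared numbers do not establish pairs. At 6 h the residual r at equal numbers was 0.705 for BMP2 and control, 0.564 for TSA and control and 0.632 for TSA and BMP2. At TSA 24 h the block over all arrays changed no call, and the block over TSA and control replicates 1 to 4 alone, also chosen after seeing the data, added Spry2. At TSA 6 h Spred1 also passed with the block over all arrays (adjusted p = 0.024) and in a fit of the compared groups alone (0.030).

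Without a filter 1 passed at TSA 6 h. Median scaling left 3 at TSA 24 h and 1 for TSA 24 h minus 6 h, and put the median of all genes at -0.12 and -0.15. For TSA against BMP2 at 24 h, 5 passed on the deposited signals, 6 with the Xist term, 6 with probe sets averaged per gene and 8 with terms for the 3 sets of 24 h arrays, the last chosen after seeing the data. The mean of probe sets gave 1 for control 24 h against 6 h (Etv5). The causes were not tested.

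With each array left out in turn, 0 to 1 passed at BMP2 24 h, 0 to 2 at TSA 6 h, 4 to 5 at TSA 24 h, 0 to 1 for TSA against BMP2 at 6 h, 1 to 5 at 24 h and 1 to 4 for TSA 24 h minus 6 h. Dusp4 and Etv4 are near the limit of 100 and were not tested at a limit of 200.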
